A study of Mus musculus with 6 samples.

Results

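The 9 genes described here, *Piezo1*, *Pkd1*, *Klf2*, *Klf4*, *Nfatc1*, *Gja1*, *Gja4*, *Celsr1* and *Cldn11*, serve the sensing of lymph flow or the building of lymphatic valves, or mark valve endothelium. They were chosen by name from the 55401 genes of the tables, without use of their measured values in the choice rule, and all 9 were among the 17459 genes with enough counts to be tested. RNA was sequenced from dural lymphatic endothelial cells (LECs), the cells lining the meningeal lymphatic vessels (MLVs). Young male wild-type C57BL/6J mice had received an adeno-associated virus (AAV) of serotype 9 into the cisterna magna. In the AAV-VEGF-C group it encoded full-length mouse VEGF-C, the main lymphatic growth factor, and in the AAV-CTRL group a soluble fragment of the VEGF-C receptor VEGFR-3 that does not bind VEGF-C. Both groups therefore carried a vector, and reads from the control vector could add to those of *Flt4*, the gene of VEGFR-3. LECs were sorted as cells with CD31, Podoplanin and LYVE-1 and without CD45. Each group had 3 libraries, each from 10 to 12 pooled meninges of a separate experiment, and libraries with the same number came from the same experiment.

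Lymph moving along the vessel wall exerts shear stress, which LECs sense through membrane channels and junctional receptors. Steady flow is known to act through the kinase ERK5 and MEF2 transcription factors to induce *Klf2* and *Klf4*, whereas disturbed flow at vessel branch points acts with the transcription factors PROX1, FOXC2 and GATA2 to start the valve program, in which calcineurin activates NFATC1 and connexins couple the valve cells. In the dura mater, MLVs are thin-walled, and valves are described mainly in their collecting parts near the skull base. The LECs sequenced here were sorted from the dorsal dura mater of the skullcap, not from the skull base.

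Because *Klf2* and *Klf4* were the most abundant of these genes, the 250 bases before their RefSeq start sites (GRCm38.p6) are shown, 5′ to 3′ on the strand of the gene. Capitals mark a MEF2 site and the GC box GGGCGG, searched on both strands, to which factors of the SP and KLF families bind. The *Klf2* window lies at chr8:72318812-72319061 on the plus strand, and the *Klf4* window at chr4:55532476-55532725 on the minus strand.
Klf2: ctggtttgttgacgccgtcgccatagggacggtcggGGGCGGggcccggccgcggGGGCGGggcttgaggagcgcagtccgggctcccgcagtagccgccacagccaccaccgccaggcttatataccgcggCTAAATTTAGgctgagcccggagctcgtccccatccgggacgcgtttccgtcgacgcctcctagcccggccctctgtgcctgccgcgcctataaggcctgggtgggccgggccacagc
Klf4: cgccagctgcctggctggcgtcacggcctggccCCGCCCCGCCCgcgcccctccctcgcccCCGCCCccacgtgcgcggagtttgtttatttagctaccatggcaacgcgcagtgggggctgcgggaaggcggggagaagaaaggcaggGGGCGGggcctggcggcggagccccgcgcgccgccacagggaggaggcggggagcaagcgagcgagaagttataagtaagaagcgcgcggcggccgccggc
The *Klf2* window held 1 match to the MEF2 consensus, CTAAATTTAG, 118 bases before the start, and 2 GC boxes. The *Klf4* window held 4 GC boxes, of which 2 overlap each other, and 0 MEF2 matches. Among all 32851 promoter windows of the same length, 2.92% held a MEF2 match and 32.7% a GC box. Windows were found for 7 of the 9 genes, all but *Celsr1* and *Nfatc1*. Of these 7, 1 held a MEF2 match and 5 held a GC box. A match describes the letters of the window and is no evidence that a factor binds there.

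The libraries differed in depth along the same line as the groups. AAV-CTRL libraries held 6530269 to 12399498 counts and AAV-VEGF-C libraries 564475 to 3261935 (ratio of group means 0.196, exact permutation test, two-sided p = 0.1, the lowest value possible with 3 against 3). The treatment cannot be told apart from the depth. Gene families with no known use in endothelium, 1935 receptor, keratin-associated and defensin genes, took 158.7 to 292.7 counts scaled to the library total (CPM) in AAV-CTRL and 2884 to 7053 CPM in AAV-VEGF-C. At the counts per exonic kilobase of those families, *Klf2* and *Klf4* would have received less than 1% of their own counts in any library. The highest value was 15.4% for *Gja4*, and *Piezo1*, *Celsr1*, *Nfatc1* and *Cldn11* each reached at least 12.2%, *Pkd1* 8.44% and *Gja1* 5.0%, all in AAV-VEGF-C libraries. LEC genes were detected, with *Prox1* at 14.1, 6.44 and 7.45 TPM (a level corrected for gene length, summing to the same total in each library) in AAV-CTRL 1, 2 and 3 and at 9.62, 4.31 and 3.15 TPM in AAV-VEGF-C 1, 2 and 3. Markers of other cells were present too. The 7 fibroblast markers summed to 1031 to 2157 TPM in AAV-CTRL and 260.3 to 856.8 TPM in AAV-VEGF-C. In CPM scaled for library composition (TMM) these sums overlapped, at 8915 to 21650 against 5939 to 10140. The 7 leukocyte markers summed to 11.5 and 9.64 TPM in the libraries of experiment 1 but 454.8 to 1520 TPM in the other 4. No leukocyte or fibroblast marker was at 0 in all libraries, but *S100a8* and *Dpt*, among others, were at 0 in at least 1 library. The part of these cells in the values below was not tested, and in bulk samples fewer cells of a type and less RNA per cell cannot be told apart.

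To find whether VEGF-C altered these genes, the groups were compared by edgeR's quasi-likelihood test over the whole table. Of the 9 genes 0 passed an adjusted p of 0.05, and 0 reached 0.05 before adjustment, whereas 11.2% of all tested genes were called (10.5% higher and 0.659% lower in AAV-VEGF-C). By DESeq2, which the study used, 0 of the 9 were called and 2 were under 0.05 before adjustment, against 19.4% of all genes called higher and 1.72% lower. The adjusted p ran from 0.214 for *Gja1* to 0.882 for *Nfatc1*. The fitted log2 fold change was negative for 7 genes and positive for *Celsr1* and *Gja4*, with a median of -0.48. The median was -0.004 over all tested genes and -0.41 over those 7234 whose mean TPM was 5 or more, to which the 7 negative genes belong. Scaling moved all genes together. When libraries were scaled on the endothelial genes *Pecam1*, *Cdh5*, *Tie1* and *Egfl7*, the median was 0.20 for the 9 genes and 0.75 for all genes. The median of genes averaging 5 TPM or more was not taken under that scaling. *Klf2*, *Klf4*, *Nfatc1* and *Piezo1* changed sign under it, the other 5 genes did not, and 0 of the 9 were called (17.4% of all genes higher, 0.0344% lower). With the experiment number also in that fit it was 0 of 9 again (12.8% higher, 0.0286% lower). A p that misses the threshold does not show that the groups were alike.

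**Figure D1:**
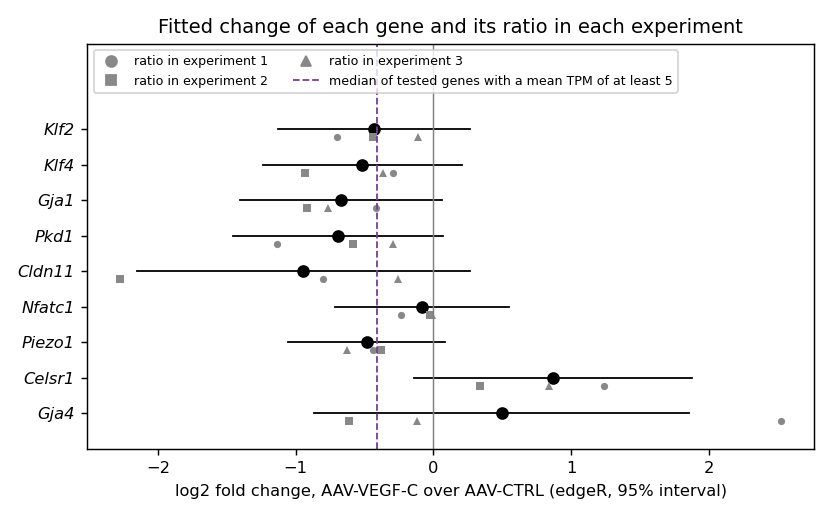
Fitted log2 fold change of each gene, AAV-VEGF-C over AAV-CTRL, with its 95% interval (black) and the log2 ratio of scaled CPM in each experiment (grey, by shape). Every interval spans 0, and the 7 genes on the negative side lie around the dashed median of -0.41 of abundant genes.

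**Figure D2:**
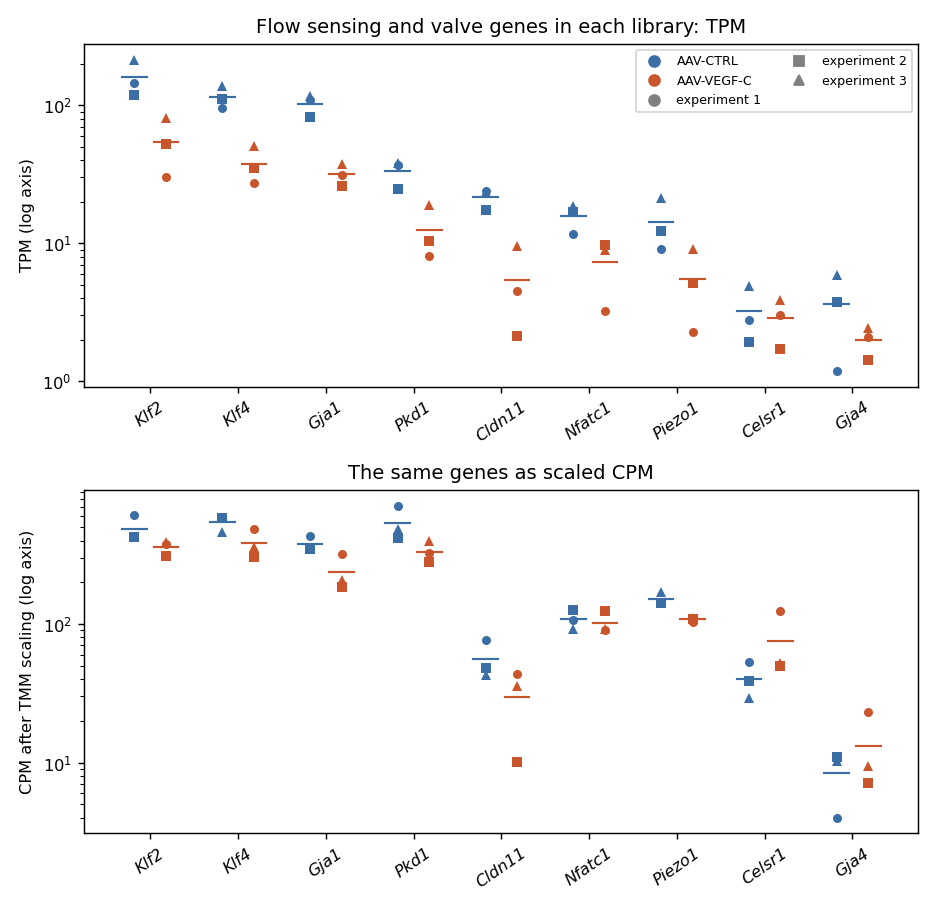
Level of each gene in each library, as TPM (upper panel) and as CPM after TMM scaling (lower panel), both on log axes, with bars at the group means. In TPM all AAV-VEGF-C libraries lie below all AAV-CTRL libraries for 7 genes, and in scaled CPM for 4.

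*Piezo1* encodes a mechanosensitive cation channel required for lymphatic valves. It stood at 9.13, 12.3 and 21.1 TPM in AAV-CTRL 1, 2 and 3 and at 2.28, 5.19 and 9.02 TPM in AAV-VEGF-C 1, 2 and 3. Each AAV-VEGF-C library was below the AAV-CTRL library of the same experiment and below all AAV-CTRL libraries. After TMM scaling, which corrects for library composition, the CPM were 140.7, 141.6 and 171.4 against 104.0, 108.9 and 111.0, again with no overlap. The fitted fold was 0.715 (95% interval 0.481 to 1.06, log2 fold change -0.48, SE 0.25, adjusted p = 0.243, edgeR). A rise of more than 1.06-fold thus lay outside the interval under this scaling. When scaled on the endothelial genes the log2 fold change was 0.26, above the interval's upper bound of 0.085 on that scale. Counts of *Piezo1* (GRCm38 chromosome 8, 122481698 to 122551329, minus strand) are uncertain where it overlaps *Ctu2* and 2 predicted genes.

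*Pkd1* encodes polycystin-1, a large membrane protein that pairs with the channel polycystin-2 and is needed for lymphatic vessel patterning. Its levels were 37.0, 24.7 and 37.9 TPM in AAV-CTRL and 8.11, 10.3 and 18.9 TPM in AAV-VEGF-C. In scaled CPM the groups did not overlap either (419.4 to 712.6 against 280.2 to 394.3). The fold was 0.618 (0.364 to 1.05, log2 fold change -0.69, SE 0.33, adjusted p = 0.215, edgeR). *Pkd1* (chromosome 17, 24549834 to 24596508, plus strand) overlaps *Tsc2* on the other strand, and the use of strand in counting is not given in the sources used here. *Pkd2*, the gene of its partner, was at -0.66 on the log2 scale (SE 0.34, adjusted p = 0.252), and the ratio of *Pkd1* to *Pkd2* in TPM stayed between 1.02 and 1.48 in all 6 libraries.

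*Klf2* encodes a flow-induced transcription factor of quiescent endothelium, and was the most abundant gene of the set in 5 of 6 libraries. It stood at 145.1, 118.3 and 214.5 TPM in AAV-CTRL and at 30.2, 52.6 and 81.0 TPM in AAV-VEGF-C. The lowest AAV-CTRL library was thus above the highest AAV-VEGF-C library. In scaled CPM the gap was small, with 423.7 CPM in the lowest AAV-CTRL and 393.1 CPM in the highest AAV-VEGF-C library. The fold was 0.741 (0.457 to 1.203, log2 fold change -0.43, SE 0.30, adjusted p = 0.390, edgeR).

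*Klf4* encodes the related factor induced by the same pathway. Its levels were 96.1, 110.4 and 136.9 TPM in AAV-CTRL and 27.2, 35.3 and 50.6 TPM in AAV-VEGF-C. In scaled CPM the groups overlapped, since AAV-VEGF-C 1 (483.0 CPM) was above AAV-CTRL 3 (463.4 CPM). The fold was 0.698 (0.423 to 1.15, log2 fold change -0.52, SE 0.31, adjusted p = 0.317, edgeR). *Klf2* exceeded *Klf4* in TPM in every library, by 1.07- to 1.57-fold in AAV-CTRL and 1.11- to 1.60-fold in AAV-VEGF-C, so the ratio of these factors overlapped between groups.

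Both KLF genes are also induced by tissue dissociation. The 14 immediate early genes, which cells switch on within minutes of handling, were abundant in these libraries, with *Fos* at 1245, 1740 and 1765 TPM in AAV-CTRL and 193.3, 624.0 and 621.0 TPM in AAV-VEGF-C. All 14 had a negative log2 fold change (median -0.49, 0 called by edgeR, 0 under 0.05 before adjustment). All 14 also averaged 5 TPM or more, where the median over all tested genes was -0.41. The part of dissociation in the KLF levels was not tested.

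*Nfatc1* encodes the calcineurin-dependent transcription factor of valve endothelium. It stood at 11.8, 16.8 and 18.5 TPM in AAV-CTRL and 3.25, 9.64 and 8.97 TPM in AAV-VEGF-C, with no overlap. In scaled CPM the groups were interleaved (92.5 to 126.3 against 90.1 to 124.0), and the fold was 0.943 (0.608 to 1.46, log2 fold change -0.08, SE 0.27, adjusted p = 0.882, edgeR). Of the 9 genes it had the fitted value nearest 0. Under TMM scaling its interval left out a fall below 0.608-fold and a rise above 1.46-fold. When scaled on the endothelial genes the log2 fold change was 0.59, above the interval's upper bound of 0.55 on that scale.

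*Gja1* encodes connexin 43, the most widely used gap junction protein, which in lymphatic valves lies on one face of the leaflet. It stood at 108.9, 81.9 and 117.1 TPM in AAV-CTRL and at 31.3, 26.0 and 37.7 TPM in AAV-VEGF-C. The groups did not overlap in TPM or in scaled CPM (349.9 to 429.9 against 185.6 to 321.2). The fold was 0.629 (0.378 to 1.05, log2 fold change -0.67, SE 0.32, adjusted p = 0.214, edgeR), the smallest adjusted p of the set.

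*Gja4* encodes connexin 37, which is needed for valve formation. It had the lowest mean over the 6 libraries (2.80 TPM), although *Celsr1* was lower in AAV-CTRL 2 and 3. It stood at 1.18, 3.78 and 5.93 TPM in AAV-CTRL and 2.09, 1.44 and 2.41 TPM in AAV-VEGF-C, with overlapping groups. It rested on 25, 86 and 152 counts in AAV-CTRL and 10, 10 and 33 counts in AAV-VEGF-C. At such depth counting error alone was large. The 10 counts of AAV-VEGF-C 1 correspond to 17.7 CPM with a 95% Wilson interval of 9.62 to 32.6, before TMM scaling. The fold was 1.41 (0.548 to 3.62, log2 fold change 0.49, SE 0.59, adjusted p = 0.629, edgeR). Its sign came from experiment 1, where the log2 ratio was 2.52, against -0.61 and -0.12 in experiments 2 and 3, and without AAV-VEGF-C 1 the fitted value was -0.083. The TPM ratio of *Gja1* to *Gja4* was 92.4, 21.7 and 19.8 in AAV-CTRL libraries, against 14.99, 18.1 and 15.6 with AAV-VEGF-C. Every AAV-VEGF-C library thus lay below every AAV-CTRL library, by a narrow gap (18.1 against 19.8). The ratio was not compared with that of other gene pairs. Over all tested genes the median log2 fold change was -0.45 at 50 TPM and over, where *Gja1* lies. It was 0.33 at 0.5 to 5 TPM, where *Gja4* lies. AAV-CTRL 1 stood far from the other 5.

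*Celsr1* encodes a planar cell polarity cadherin that orients valve cells. It stood at 2.80, 1.92 and 4.94 TPM in AAV-CTRL and 3.02, 1.73 and 3.89 TPM in AAV-VEGF-C, on 54 to 431 counts. In TPM the groups were interleaved. In scaled CPM it was higher in AAV-VEGF-C in all 3 experiments (52.8, 39.0 and 29.2 against 124.8, 49.4 and 52.0), although AAV-CTRL 1 was above AAV-VEGF-C 2 and 3. The fold was 1.82 (0.905 to 3.67, log2 fold change 0.87, SE 0.44, adjusted p = 0.239, edgeR), and on log2(TPM + 1) the difference was -0.10. For genes of its abundance, with a mean of 0.5 to 5 TPM, the median log2 fold change was 0.33.

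*Cldn11* encodes a tight junction claudin that marks lymphatic valve endothelium and is also made by myelinating glia and arachnoid barrier cells. It stood at 23.9, 17.3 and 23.4 TPM in AAV-CTRL and 4.54, 2.12 and 9.58 TPM in AAV-VEGF-C, with no overlap in TPM. In scaled CPM AAV-VEGF-C 1 (43.9 CPM) was just above AAV-CTRL 3 (42.6 CPM). It had the lowest fold of the 9 genes, 0.520 (0.225 to 1.2, log2 fold change -0.94, SE 0.52, adjusted p = 0.278, edgeR), with AAV-VEGF-C 2 lowest at 14 counts. With no filter on low counts *Cldn11* was called lower (-1.22, adjusted p = 0.0342, edgeR, with 2.64% of all genes called lower), and likewise by limma on log2(TPM + 1) (-1.98, adjusted p = 0.0496), where 2.49% of all genes were called lower and the median difference of genes averaging 5 TPM or more was -1.31. The 5 arachnoid barrier markers summed to 153.3, 154.3 and 166.0 TPM in AAV-CTRL and 26.1, 47.4 and 97.6 TPM in AAV-VEGF-C, with no overlap in TPM, but with overlap in scaled CPM (299.6 to 441.9 against 179.2 to 303.4). The 7 oligodendrocyte and Schwann cell markers summed to 0.926 to 22.1 TPM and 5.06 to 19.7 TPM. In scaled CPM their sum was higher in AAV-VEGF-C without overlap (5.14 to 51.9 against 53.8 to 67.0). Of single tested genes 22.3% lay higher without overlap on that scale. Of these 7 markers 2 were called higher, *Sox10* (2.60, adjusted p = 0.0328) and *Mog* (5.90, adjusted p = 0.0248, edgeR), where 10.5% of all genes were. Both were low, with means of 1.67 TPM for *Sox10* and 0.370 TPM for *Mog*. The median log2 fold change was 3.66 for tested genes averaging under 0.5 TPM and 0.33 for those at 0.5 to 5 TPM. The part of these cells in the *Cldn11* values was not tested.

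Across the set, groups did not overlap in scaled CPM for 4 of 9 genes, *Gja1*, *Klf2*, *Piezo1* and *Pkd1*, all lower in AAV-VEGF-C, where 17.6% of all tested genes lay lower without overlap, 22.3% higher and 39.9% in either direction. In TPM it was the 7 genes averaging 5 TPM or more, where 61.4% of all genes of that abundance lay lower and 3.46% higher, and 36.4% of genes of any abundance lay lower. The lower TPM of these 7 genes was thus shared with most genes of that abundance. In scaled CPM the same 7 genes were lower in all 3 experiments. For *Nfatc1* the log2 ratios of experiments 2 and 3 were only -0.027 and -0.012. How many of all genes were lower in all 3 experiments was not counted, so this number only describes the set.

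**Figure D3:**
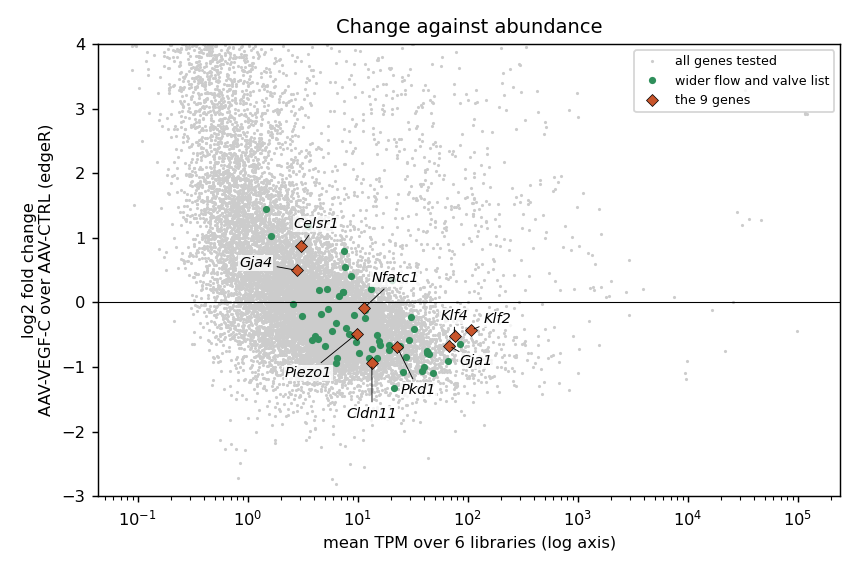
Log2 fold change (edgeR) against the mean TPM over 6 libraries (log axis) for all tested genes (grey, those beyond -3 and 4 not drawn), the 56 genes of the wider list (green) and the 9 genes (orange). The 7 genes over 5 TPM lie in the band of other abundant genes around -0.41, and *Celsr1* and *Gja4* lie where less abundant genes spread upward.

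The order of levels was then compared within libraries. By mean TPM it was *Klf2*, *Klf4*, *Gja1*, *Pkd1*, *Cldn11*, *Nfatc1*, *Piezo1*, *Celsr1* and *Gja4*, from 106.9 to 2.80 TPM. Of the 8 pairs of neighbours, 3 kept their order in 6 of 6 libraries. These were *Klf2* over *Klf4* (1.37-fold), *Gja1* over *Pkd1* (2.89-fold) and *Pkd1* over *Cldn11* (1.99-fold), each with a two-sided exact sign-flip permutation p of 0.0312, the smallest that 6 libraries allow, and 0.0833 after adjustment over the 8 pairs. No pair passed 0.05 after this adjustment, and the order was set by the same libraries, so it is a description. *Piezo1* was above *Celsr1* in 5 of 6 libraries (2.79-fold, adjusted p = 0.125). The other 4 pairs had mean log2 ratios smaller than their SD. *Pkd1* had rank 4 in all libraries.

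To remove the scaling between libraries, each gene was set against the summed TPM of *Pecam1*, *Cdh5*, *Tie1* and *Egfl7*, endothelial genes of which the first encodes the sort antigen CD31. This sum was 103.2, 162.3 and 453.8 TPM in AAV-CTRL and 51.6, 67.0 and 66.1 TPM in AAV-VEGF-C, so it did not overlap either. Within AAV-CTRL it rose in the same library order as the summed blood endothelial markers, whose part in it was not tested. Relative to it, *Klf2* was at 140.6%, 72.9% and 47.3% in AAV-CTRL and at 58.5%, 78.5% and 122.5% in AAV-VEGF-C. The library of experiment 1 was the highest in AAV-CTRL and the lowest in AAV-VEGF-C. The groups overlapped for all 9 genes. The log2 difference of *Klf2* was 0.07 (two-sided exact permutation p = 0.9), that of *Gja1* -0.01 (exact p = 1.0) and that of *Cldn11* -0.55 (exact p = 0.6). The 2 largest differences were 1.56 for *Celsr1*, at 2.71%, 1.19% and 1.09% against 5.84%, 2.58% and 5.89%, and 1.06 for *Gja4* (exact p = 0.2 for each, 0.9 after adjustment over the 9 genes).

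**Figure D4:**
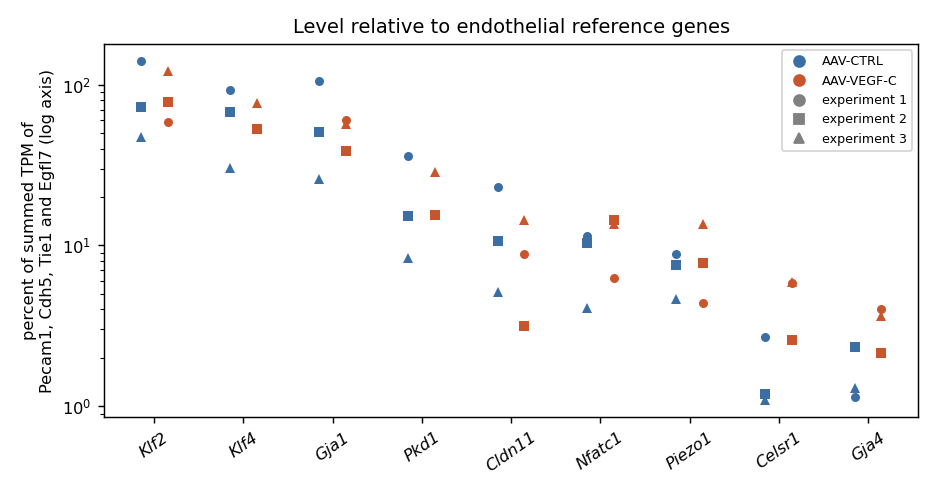
Level of each gene as a percent of the summed TPM of 4 endothelial genes in each library (log axis). The groups overlap for every gene, and AAV-CTRL 3, where the endothelial sum was 453.8 TPM, is the lowest AAV-CTRL library for 8 of 9 genes.

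The pathway around these genes was described with 56 further genes for channels, shear receptors, the ERK5 path, calcineurin and valve development, all of which were tested. One, *Itgb1*, was called, and lower in AAV-VEGF-C, where 0.659% of all tested genes were called lower and 10.5% higher. *Itgb1* encodes the beta 1 integrin chain, which with alpha 9 binds fibronectin in valve leaflets. It stood at 56.3, 64.7 and 116.5 TPM in AAV-CTRL and 9.81, 18.1 and 23.2 TPM in AAV-VEGF-C, and fell by 1.10 on the log2 scale (SE 0.26, adjusted p = 0.0358, edgeR), in all 3 experiments. The call was lost when any single library was left out (adjusted p from 0.0568 to 0.105), with a log2 fold change that stayed between -1.10 and -1.22, and when scaled on endothelial genes (-0.36, adjusted p = 0.877). *Itga9*, encoding its partner in valves, was at 0.20 (SE 0.33, adjusted p = 0.737). Of the 56 genes 43 were negative and 13 positive, with a median of -0.52. Of them 46 averaged 5 TPM or more, where the median over all tested genes was -0.41. Before adjustment 11 were under 0.05, all of them negative, where 9.11% of all genes lay lower and 19.0% higher at that level. The shares among genes averaging 5 TPM or more were not taken, so the count is no result about the list. With the experiment number as a block 3 of 56 were called lower, against 2.07% of all tested genes. Besides *Itgb1* these were *Heg1*, a receptor of the CCM complex that restrains *Klf2* and *Klf4*, at -1.24 (adjusted p = 0.0253), and *Thbd*, the KLF2 target thrombomodulin, at -1.01 (adjusted p = 0.0432), both named after their values were seen. With the block 0 of the 9 genes were called (adjusted p from 0.0965 to 0.851, 2 lower and 1 higher before adjustment), where 14.9% of all genes were.

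The transcription factors that start valves did not pass the test. The log2 fold change was 0.79 for *Prox1* (SE 0.74, adjusted p = 0.524), -0.60 for *Foxc2* (SE 0.43, adjusted p = 0.398) and -0.68 for *Gata2* (SE 0.58, adjusted p = 0.488). *Foxc2* stood at 29.8, 14.8 and 25.6 TPM in AAV-CTRL and 3.93, 5.29 and 13.7 TPM in AAV-VEGF-C. Over all libraries this was the same order as that of the summed fibroblast markers in TPM, whose part was not tested. *Gata2* was uneven within AAV-CTRL, at 1.29, 6.04 and 18.1 TPM, in the same library order as the summed blood endothelial markers, whose part was not tested. Of the 8 genes of the valve factor group, which also holds the co-activators *Yap1*, *Wwtr1* and *Ctnnb1*, 7 were negative (median -0.80, 0 called). All 8 averaged 5 TPM or more, where the median over all tested genes was -0.41. The 4 under 0.05 before adjustment, all negative, were *Foxo1*, *Yap1*, *Wwtr1* and *Ctnnb1*, not *Prox1*, *Foxc2* or *Gata2*. At that level 9.11% of all genes lay lower and 19.0% higher. Among other valve genes, *Ephb4*, the ephrin receptor of valve and venous endothelium, was at -0.66 (SE 0.36, adjusted p = 0.278). *Nos3*, the KLF2 target that makes nitric oxide, was at -0.57 (SE 1.0035, adjusted p = 0.760). Within AAV-CTRL it went from 0.301 to 16.0 TPM, in the same library order as *Gata2*. The groups of 4 calcineurin genes and 2 NFAT genes, 5 ERK5 path genes and 5 channel genes also held 0 called genes, with medians of -0.35, -0.23 and 0.09. The channel group counts *Stim1*, whose product is a calcium sensor and not itself a channel.

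Among the 9 genes, the pairs with the most similar pattern of log2 CPM over the 6 libraries were *Klf2* with *Pkd1* (Pearson r 0.97) and *Klf4* with *Gja1* (0.96), and the most opposed were *Piezo1* and *Celsr1* (-0.77). For *Nfatc1* r with the other genes lay between -0.40 and 0.043. Among 6635 genes averaging 5 TPM or more, the most similar were *Fbxl5* and *Rpl36al* to *Piezo1* (0.995 and 0.994), *Cdk16* and *Bicc1* to *Pkd1* (0.998 and 0.997), *Acin1* and *Igsf3* to *Klf2* (0.995 and 0.994) and *Mef2d* and *Mknk2* to *Nfatc1* (0.99 each). Those most similar to *Klf4* were *Ppp4r2* and *Actr1a* (0.99 each), to *Gja1* *Cldnd1* (0.996) and *Prickle1* (0.99), to *Gja4* *Mfsd6* and *Cyp2d22* (0.95 each), to *Celsr1* *Pcsk5* and *Jade1* (0.99 each) and to *Cldn11* *Ildr2* and *Cdv3* (0.99 each). These values rest on 6 points that share library and depth, and each is the highest of 6635, so they are given as a description.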

How the data were processed

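Total RNA of sorted dural LECs was sequenced with a stranded low-input kit. The authors deposited expected counts per gene and TPM values. The submitters' processing notes name FastQC, Trimmomatic, DRAGEN, Picard and the build mm10; their settings, strand use and handling of molecular identifiers are not given in the sources used here. Gene identifiers equalled those of GENCODE M21 in 98.1% of cases with version and 99.5% without, and positions are from it.

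The expected counts were rounded. In edgeR (version 4.0.16, R 4.3.3) low genes were removed with filterByExpr and libraries scaled by TMM. Quasi-likelihood tests were adjusted by the Benjamini-Hochberg method over 17459 genes. DESeq2 (version 1.42.0), which the study used, and limma (version 3.58.1) were alternatives. For single values per library an exact two-sided permutation test was used. Shares have 95% Wilson intervals, which cover counting error only. Depth was 564475 to 12399498 counts.

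The labels tie replicate numbers to repeats of the experiment. Deviations of same-numbered libraries from group means correlated across genes at 0.37, 0.28 and 0.15 (highest value between different numbers 0.22, AAV-CTRL 3 with AAV-VEGF-C 2). With the labels, the numbers were taken to pair the libraries. P-values measure the spread between pooled samples. The genes named are the 9 genes, the called genes of the wider list with 7 fixed ones (another gene of the rule is not reported here), and the 2 most correlated genes without predicted ones. The members and lists were chosen with earlier results of these data known.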

Additional observations from a re-analysis of the deposited data

How the results depend on the processing

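Among the 9 genes 0 were called higher under any of the 18 alternatives, and 0 were called lower except 1 (*Cldn11*) with no filter and 1 with limma on log2(TPM + 1). In the other fits 0 to 5 of them lay lower at an unadjusted p under 0.05 (2 with DESeq2, 5 with limma at a pseudocount of 0.1) and 0 to 1 higher. Of the 9 genes 8 could be tested when drawn down and 7 with the filter at 5 TPM. Over all genes, the calls (higher and lower) were 1835 and 115. They were 9382 and 1175 with no filter, 5659 and 501 with DESeq2, 1112 and 434 with limma on log2(TPM + 1), 9 and 0 when only genes averaging 5 TPM or more were kept (671 and 338 at an unadjusted p under 0.05, edgeR), 0 and 0 when drawn down to the smallest total (310 and 69 unadjusted, edgeR) and 3036 and 6 with scaling on endothelial genes. Calls of lower genes were 53 with library size alone, 8 with the 2000 most abundant genes, 362 with the replicate block and 5 with the block and endothelial scaling. Without each library in turn they ran from 0 to 1771 higher and 0 to 48 lower, with 0 of both without AAV-CTRL replicate 2 (3604 and 1467 unadjusted, edgeR) or 3 (3641 and 986), 8 and 0 without AAV-VEGF-C replicate 2 (4001 and 1752), and 320 and 8 without AAV-VEGF-C replicate 3. Of the 56 wider genes, 1 was called lower. The count was 10 with no filter, 4 with DESeq2, 3 with the replicate block and 0 with scaling by library size only, on the 2000 most abundant genes, the filter at 5 TPM, drawn-down counts, both endothelial scalings and without any library (0 to 0, with 8 to 13 unadjusted, edgeR), and 1 was called higher with endothelial scaling. The block changed no call of the 9 genes. Endothelial scaling and the fit with the block and that scaling were added after the data were seen.

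Signs turned as follows. The median over all tested genes was -0.004 in the reported fit, 0.75 with endothelial scaling and 0.35 with the 2000 most abundant genes. It was -0.72 on log2(TPM + 1) and -1.04 with a pseudocount of 0.1. With endothelial scaling the log2 fold change was 0.20 for *Klf2*, 0.064 for *Klf4*, 0.59 for *Nfatc1*, 0.26 for *Piezo1*, 0.0101 for *Foxc2*, 0.32 for *Gata2* and 0.59 for *Nos3*. With the block added it was 0.26, 0.13, 0.60, 0.21, 0.13, 0.29 and 0.63, and 0.022 for *Pkd1* and 0.10 for *Pkd2*. *Nfatc1* was at 0.27 with the 2000 most abundant genes, 0.26 with the filter at 5 TPM and 0.045 when drawn down, where *Cldn11* was at 0.41 and *Ephb4* at 0.061. On log2(TPM + 1) *Celsr1* was at -0.10, *Gja4* at -0.50, *Itga9* at -1.18 and *Prox1* at -0.67, and with a pseudocount of 0.1 at -0.13, -0.61, -1.31 and -0.78. *Itga9* was at -0.080 with no filter. Without each library, values ran from -0.083 to 0.69 for *Gja4*, -0.12 to 0.34 for *Itga9*, -1.40 to 0.42 for *Nos3* and -0.39 to 1.38 for *Prox1*. Relative to *Prox1*, *Lyve1*, *Pdpn* and *Flt4*, the log2 difference was -0.42 for *Klf2*, -0.44 for *Klf4*, -0.041 for *Nfatc1*, -0.30 for *Piezo1* and -0.29 for *Pkd1*. Relative to the endothelial genes it ran without each library from -1.09 to 0.059 for *Cldn11*, -0.51 to 0.50 for *Gja1*, -0.29 to 0.49 for *Klf2*, -0.42 to 0.40 for *Klf4*, -0.019 to 0.84 for *Nfatc1*, -0.21 to 0.60 for *Piezo1* and -0.29 to 0.76 for *Pkd1*. Non-overlapping genes on that scale were 0, 2 with counts in place of TPM, and 0 to 2 without each library. The cause of the turns was not tested. The 10 to 33 counts of *Gja4* and 14 to 124 of *Cldn11* in AAV-VEGF-C limit the precision of both genes.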
